A study of Mus musculus with 3 samples.

Results

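The Arraystar mouse lncRNA array used here carried 83 probes whose names begin with MM9LINCRNAEXON, out of 60915 probes in all, and these 83 were taken by that prefix alone, without regard to their signal. Each name holds a number and a strand sign, as in MM9LINCRNAEXON10569-_P1, and each probe had 1 spot per array. The names cover 71 different numbers, from 10101 to 12051. There were 50 probes with a plus sign and 33 with a minus sign, and 12 of the numbers were read on both strands. The array grid refers to the mouse build mm9, per the file headers. The files used here pair these probes with no gene, coordinate or base sequence, so each is given by its name, and the loci were not analysed here.

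Long intergenic noncoding RNAs (lincRNAs) are transcripts made from the stretches between protein-coding genes. Many are spliced and polyadenylated like mRNAs but do not code for a protein, and they are usually less abundant and more restricted to particular cell types than mRNAs. Some act in the nucleus, where they bind chromatin regulators, and others bind proteins or RNAs in the cytoplasm. For most of them no function is known. A locus can also be transcribed on the opposite strand, as antisense RNA, and paired plus and minus probes are a means to read the strands apart.

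The RNA was that of PMN-MDSCs, short for polymorphonuclear myeloid-derived suppressor cells, which are cells of the neutrophil lineage that can hold back T cells in a tumor-bearing host. The groups, each with 1 array, were tumor-tissue PMN-MDSCs and splenic PMN-MDSCs, both from tumor-bearing mice, and splenic PMN-MDSCs from wild-type mice. All mice were male C57BL/6 of 6 to 8 weeks, and the cells of every group went through an MDSC isolation kit and then a sort on CD11b and Ly6G. The tumor model, the number of mice and any pooling of animals are not given in the sources used here. The clone named for Ly6G is commonly sold as anti-Gr-1, which can also stain Ly6C-positive monocytes, and no marker of neutrophils or of other cells could be read from a named probe, so the cell type was not checked. The same name, PMN-MDSCs, is used for the wild-type cells, where no suppressive activity was measured in these data.

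Signals below are the scanner software's processed signals in its own brightness units. Brightness depends on the probe as well as on the RNA, so signals are compared between arrays for the same probe only. The 75th percentile of all probes was 524 units on the tumor array, 509 on the tumor-bearing spleen array and 698 on the wild-type array. Differences are therefore given as log2 differences after each array was divided by its own 75th percentile, and a fold is taken from that scaled difference. The error after a difference is the SD between repeated spots of other probes of like brightness, combined over the arrays compared. It holds no variation between mice or hybridisations. With 1 array per group there is no replicate and no test, and a 2-fold difference, which is 1 on the log2 scale, serves as a descriptive limit. In sorted bulk samples such as these, fewer cells expressing an RNA and less RNA per cell cannot be told apart.

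Most of the lincRNA exon probes gave a signal well above background in PMN-MDSCs, by the scanner's own mark. On the tumor array 56 of 83 did so (67.5%), on the tumor-bearing spleen array 52 (62.7%) and on the wild-type array 50 (60.2%). The same shares over all probes were 76.1%, 73.7% and 76.8%. Negative control spots, which match no mouse RNA, were marked in 7.33%, 5.00% and 6.00% of 300 spots, so a few marks at the dim end are within that background. On all 3 arrays 45 probes (54.2%) were detected, against 67.7% of all probes, and on none 22 (26.5%), against 16.9%. The other 16 were detected on 1 or 2 arrays. By strand, 26 of 50 plus probes and 19 of 33 minus probes were detected on all 3 arrays (52.0% and 57.6%), and 16 plus and 6 minus probes on none (32.0% and 18.2%).

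The 45 probes detected on all arrays spanned a very wide range of signal, from 15.2 to 71618.5 units on the tumor array, 19.9 to 160579 on the tumor-bearing spleen array and 19.9 to 94778 on the wild-type array. Their medians were 102, 145 and 103 units. Only 6, 11 and 6 of them lay above the 75th percentile of their array. The 22 probes detected on no array read between 2.79 and 16.8 units. The lowest signals that the scanner marked on any probe were 13.1, 16.1 and 16.5 units on the tumor, tumor-bearing spleen and wild-type arrays.

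The brightest was MM9LINCRNAEXON10664+_P1, with 71618.5 units in tumor cells, 160579 in cells of tumor-bearing spleen and 94778 in wild-type spleen. Its scaled level differed by 0.01 ± 0.10 on the log2 scale between tumor and wild-type spleen, within the spot error. That difference was 0.40 after quantile normalization, 0.41 in the authors' value table and -0.14 with the median of the probes detected on all arrays as the scale. The likeness of tumor and wild-type spleen thus rests on the scaling. The probe was 2.32-fold higher in tumor-bearing spleen than in wild-type spleen (1.22 ± 0.10). MM9LINCRNAEXON10490+_P1 followed, with 6320 units in tumor, 12409 in tumor-bearing spleen and 11761 in wild-type spleen. It differed by 0.53 ± 0.10 between the spleens, within the 2-fold limit, and by -1.02 ± 0.15 between tumor and tumor-bearing spleen, a value just past the limit that came within it under 3 of 5 alternatives. Both probes were highest in cells of tumor-bearing spleen.

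The probe with the widest difference was MM9LINCRNAEXON10569-_P1. It read 607 units in tumor, 1759 in tumor-bearing spleen and 25256.5 in wild-type spleen, so it was bright on every array and stood far highest in wild-type cells. Tumor cells were 31.2-fold lower than wild-type spleen (-4.97 ± 0.15) and cells of tumor-bearing spleen 10.5-fold lower (-3.39 ± 0.15). Tumor cells also read 2.98-fold lower than cells of tumor-bearing spleen (-1.58 ± 0.19). These 3 differences stayed past 2-fold under each scaling, background correction and value source tried, and no other lincRNA exon probe was 4-fold lower than wild-type spleen with a signal detected on both arrays.

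The first comparison, tumor against wild-type spleen, is the pair that the series design describes. Of 47 lincRNA exon probes detected on both arrays, 7 stood 2-fold or more above wild-type spleen in tumor cells (14.9%) and 5 stood 2-fold or more below it (10.6%). Over all probes measured the shares were 19.6% and 18.3%, so the lincRNA exon probes passed the limit no more often than probes in general. The remaining 35 lay within 2-fold, and the median difference was 0.17, beside 0.02 over all probes. With the median of the probes detected on all arrays as the scale, these medians became 0.03 and -0.13. All 12 differences past the limit were larger than 2 of their spot SDs. Of the 22 brighter probes, those above the midpoint in mean level of the 45 detected on all arrays, 1 was higher (4.55%, beside 22% of all probes that bright) and 4 were lower (18.2%, beside 21.2%).

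Higher in tumor cells were 3 probes that kept their place past 2-fold under each alternative. MM9LINCRNAEXON10136+_P1 read 1548 units in tumor, 923 in tumor-bearing spleen and 371 in wild-type spleen, 5.55-fold higher in tumor than in wild-type spleen (2.47 ± 0.21). MM9LINCRNAEXON11711-_P1 read 167, 82.1 and 40.0 units in the same order, again 5.55-fold higher in tumor (2.47 ± 0.52), but from a dim signal (1.57 after normexp). Both stepped down from tumor to tumor-bearing spleen to wild-type spleen. MM9LINCRNAEXON11564+_P1 had another order, with 146 units in tumor, 20.9 in tumor-bearing spleen and 46.2 in wild-type spleen, which is 4.21-fold higher in tumor than in wild-type spleen (2.07 ± 0.52).

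The other 4 higher probes were dim, and each came within 2-fold under the alternative with the normexp background correction, which starts from median spot signals and adds a constant offset. Which of these changes moved the values was not tested. MM9LINCRNAEXON11009-_P1 read 56.7 units in tumor against 19.9 in wild-type spleen, at 1.93 ± 0.52 (0.83 after normexp). MM9LINCRNAEXON10565+_P1 read 119 against 60.2 units, at 1.40 ± 0.52 (0.60 after normexp). MM9LINCRNAEXON10495-_P1 and MM9LINCRNAEXON10612+_P1 were the nearest to the limit from within, at 1.35 ± 0.52 and 1.24 ± 0.52 (0.81 and 0.82 after normexp). On the other side of the limit the nearest were MM9LINCRNAEXON11561-_P1 at 0.86 ± 0.52 and MM9LINCRNAEXON11641+_P1 at 0.62 ± 0.52.

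Lower in tumor cells than in wild-type spleen, besides MM9LINCRNAEXON10569-_P1, were 4 probes. MM9LINCRNAEXON11569-_P1 was bright on all arrays, with 1126 units in tumor, 2442 in tumor-bearing spleen and 3817 in wild-type spleen, and was 2.54-fold lower in tumor (-1.35 ± 0.19). MM9LINCRNAEXON10888-_P1 read 259, 375 and 796 units in that order and was 2.31-fold lower (-1.21 ± 0.21). These stayed past the limit under each alternative, and in both the tumor-bearing spleen signal lay between the others. MM9LINCRNAEXON11125+_P1, with 39.9 units in tumor against 185 in wild-type spleen, differed by -1.80 ± 0.52, and MM9LINCRNAEXON11274+_P1, with 87.6 against 281 units, by -1.27 ± 0.40. After normexp correction these came to -0.95 and -0.79. Outside the limit the nearest were MM9LINCRNAEXON11939-_P1 at -0.73 ± 0.23 and MM9LINCRNAEXON11867+_P1 at -0.64 ± 0.52.

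Another 12 probes were detected on only 1 of the tumor and wild-type arrays, whether or not they were detected in tumor-bearing spleen. For these the brighter signal was set against the dim array's lowest detected signal, or the dim probe's own signal where higher, which gives a bound on the fold. This bound holds no spot error, so a bound near 2-fold, here and below, is no secured minimum. Of 9 detected on the tumor but not the wild-type array, 5 were at least 2-fold higher by this bound, beside 51% of all probes in that position. Of 3 detected on the wild-type but not the tumor array, 2 were at least 2-fold lower, beside 46%. MM9LINCRNAEXON11978-_P1 read 66.4 units in tumor and 14.0 in wild-type spleen, at least 5.35-fold higher. MM9LINCRNAEXON11661-_P1, detected in tumor cells alone, read 42.4 units there and 14.5 and 14.4 in the spleens, at least 3.41-fold higher than in wild-type spleen. By the bound MM9LINCRNAEXON12036-_P1 was 2.57-fold higher, MM9LINCRNAEXON11606+_P1 2.21-fold and MM9LINCRNAEXON11641-_P1 2.04-fold. Each of these dim probes has a spot SD of 0.52 on the log2 scale, so a 2-fold difference is not secured for them. The median pixel values of MM9LINCRNAEXON11641-_P1 were 69.0 in tumor and 65.0 in wild-type spleen, over a local background of 21.0 on both. In the other direction, MM9LINCRNAEXON11712-_P1 read 12.8 units in tumor, 7.59 in tumor-bearing spleen and 232 in wild-type spleen, at least 13.3-fold lower in tumor. MM9LINCRNAEXON11660+_P1 read 3.00, 3.21 and 96.7 units, at least 5.54-fold lower in tumor. Like MM9LINCRNAEXON10569-_P1, these 2 were brightest in wild-type spleen. Unlike it, they had nothing well above background on either array of tumor-bearing mice.

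The comparison of tumor-bearing with wild-type spleen sets the same organ side by side. Here the lincRNA exon probes leaned to one direction. Of 45 detected on both arrays, 22 stood 2-fold or more above wild-type spleen in tumor-bearing spleen (48.9%) and 4 stood 2-fold or more below it (8.89%), beside 27.4% and 21.9% of all probes measured. Their median difference was 0.97, while that of all probes was 0.29, and 36 of the 45 differences were above 0. With the median of the probes detected on all arrays as the scale, the split was 17 higher and 5 lower (37.8% and 11.1%), while over all probes the balance turned, with 23.0% higher and 24.1% lower. The median difference was 0.81 on that scale and that of all probes 0.13. At 4-fold the upward excess was not there, with 2 probes higher (4.44%, beside 8.79% of all probes) and 1 lower (2.22%, beside 11.6%). Of the 22 higher probes, 13 stayed past 2-fold under each scaling, background correction and value source tried, and 21 exceeded 2 of their spot SDs. After normexp 14 were higher and 1 lower (31.1% and 2.22%), beside 19.8% and 17.6% of all probes.

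The lean was there in the brighter probes too. The midpoint is that of the mean level over the 3 arrays, among the lincRNA exon probes detected everywhere. It corresponds to about 96.1 units in tumor-bearing and 132 in wild-type spleen, but a probe above it can read lower on a single array. Of 22 lincRNA exon probes above it, 11 passed the limit upward in tumor-bearing spleen (50.0%) and 2 were lower (9.09%). All probes above that brightness gave 31.1% higher and 26.3% lower. The median difference was 1.03 for these 22 and 0.28 for all probes above that brightness. The tumor-bearing spleen array was also the array whose header gives no multiplicative detrending, a brightness correction across the slide. With signals from before that correction on every array, 20 probes were higher and 5 lower (44.4% and 11.1%), at a median of 0.97, beside 26.4%, 22.4% and a median of 0.25 over all probes. Since a single tumor-bearing and a single wild-type array were compared, whether the lean belongs to the mice or to these arrays cannot be told apart.

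Among the bright probes, MM9LINCRNAEXON11939-_P1 was higher by 3.66-fold in tumor-bearing spleen (1.87 ± 0.21), with 1399 units against 525 in wild-type spleen and 238 in tumor. MM9LINCRNAEXON11752+_P1 read 616 units against 220 and 240, 3.83-fold higher (1.94 ± 0.39). These stood highest in tumor-bearing spleen, with the signals of the other arrays well below. MM9LINCRNAEXON10136+_P1, described above for the tumor, was 3.41-fold higher (1.77 ± 0.21). MM9LINCRNAEXON11060-_P1 read 389 units in tumor, 691 in tumor-bearing spleen and 355 in wild-type spleen, at 1.42 ± 0.21 between the spleens. MM9LINCRNAEXON10105-_P1 read 922, 1642 and 937 units, at 1.26 ± 0.19. MM9LINCRNAEXON10294-_P1 read 348, 826 and 526 units, at 1.11 ± 0.21, and it came within the limit under 3 of 5 alternatives, at 0.94 after normexp.

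The top 2 upward log2 differences between the spleens belonged to dim probes, ahead of MM9LINCRNAEXON11752+_P1 and MM9LINCRNAEXON11939-_P1. MM9LINCRNAEXON10612+_P1 read 91.6 units in tumor, 180.5 in tumor-bearing spleen and 51.7 in wild-type spleen, 4.79-fold higher in tumor-bearing spleen (2.26 ± 0.40). MM9LINCRNAEXON10495-_P1 read 97.7, 170.1 and 51.1 units, 4.56-fold higher (2.19 ± 0.52). Both remained past 2-fold after normexp, at 1.52 and 1.31, and in both the tumor signal lay between the spleens. MM9LINCRNAEXON10477+_P1 read 29.9, 101 and 40.3 units, at 1.78 ± 0.52, and MM9LINCRNAEXON11009-_P1 56.7, 46.6 and 19.9 units, at 1.69 ± 0.52, but after normexp these came to 0.75 and 0.81. MM9LINCRNAEXON11600-_P1 read 64.3, 145 and 69.6 units, at 1.52 ± 0.52. MM9LINCRNAEXON11711-_P1 differed by 1.49 ± 0.52 and MM9LINCRNAEXON10664-_P1 by 1.53 ± 0.40.

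Lower in tumor-bearing than in wild-type spleen were MM9LINCRNAEXON10569-_P1, given above, and 3 probes that did not hold the limit after normexp. MM9LINCRNAEXON11274+_P1, which is among the 22 brighter probes by mean level, differed by -1.75 ± 0.40 (-0.97 after normexp). The dimmer MM9LINCRNAEXON11125+_P1 differed by -1.45 ± 0.52 (-0.75 after normexp). MM9LINCRNAEXON11382-_P1 read 53.3 units in tumor, 21.4 in tumor-bearing spleen and 60.3 in wild-type spleen, at -1.04 ± 0.52 (-0.22 after normexp). Only MM9LINCRNAEXON10569-_P1 was thus lower under each alternative.

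Of 7 probes detected in tumor-bearing but not in wild-type spleen, 4 were at least 2-fold higher by the bound, beside 55.7% of all probes in that position. MM9LINCRNAEXON11978-_P1 read 75.1 units and was at least 6.23-fold higher, MM9LINCRNAEXON11593-_P1 read 36.3 units and was at least 3.01-fold higher, and MM9LINCRNAEXON11381+_P1 read 34.9 units against 3.47 and was at least 2.89-fold higher. MM9LINCRNAEXON12036-_P1, at 27.9 units, was at least 2.31-fold higher. MM9LINCRNAEXON11978-_P1, MM9LINCRNAEXON11381+_P1 and MM9LINCRNAEXON12036-_P1 were also detected in tumor cells, with 66.4, 22.6 and 31.9 units, while MM9LINCRNAEXON11593-_P1 was not. Of 5 detected in wild-type spleen only of these arrays, 2 were at least 2-fold lower in tumor-bearing spleen, beside 43.7%. They were MM9LINCRNAEXON11712-_P1, at least 10.5-fold lower, and MM9LINCRNAEXON11660+_P1, at least 4.37-fold lower. The comparisons of tumor and of tumor-bearing spleen share the wild-type array, so a bright or dim spot there moves both in the same direction.

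The last comparison set tumor cells against splenic cells, both of tumor-bearing mice. Of 50 lincRNA exon probes detected on both arrays, 3 passed the limit upward in the tumor (6.00%) and 16 passed it downward (32.0%), beside 14.2% and 14.7% of all probes. The median difference was -0.67, beside -0.04 over all probes, and 37 of the 50 lay below 0. At 4-fold the downward excess was nearly gone, with 2 probes lower (4.00%, beside 3.45% of all probes) and 1 higher (2.00%, beside 2.72%). Of the brighter probes 1 of 22 was higher (4.55%) and 10 were lower (45.5%), beside 15.8% and 16.3% of all probes above that brightness. Under each alternative 8 of the 16 stayed past the limit, and after normexp 9 of the 50 were lower (18.0%, beside 9.33% of all probes) and 1 higher (2.00%, beside 8.75%). This comparison shares the tumor-bearing spleen array with that of the spleens, so a probe that reads high on that array leans up there and down here.

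MM9LINCRNAEXON11939-_P1 was the lowest in tumor cells relative to tumor-bearing spleen, 6.06-fold lower (-2.60 ± 0.21), and came to -2.33 after normexp. MM9LINCRNAEXON10664-_P1 followed, 4.33-fold lower (-2.11 ± 0.40), and MM9LINCRNAEXON10667+_P1 read 182 units in tumor against 553 in tumor-bearing spleen and 354 in wild-type spleen, 3.12-fold lower than in tumor-bearing spleen (-1.64 ± 0.39). MM9LINCRNAEXON10569-_P1, MM9LINCRNAEXON11752+_P1 and MM9LINCRNAEXON10294-_P1 differed by -1.58 ± 0.19, -1.40 ± 0.21 and -1.29 ± 0.21. MM9LINCRNAEXON10664+_P1 differed by -1.21 ± 0.10 and MM9LINCRNAEXON11569-_P1 by -1.16 ± 0.19. These 8 are the probes that stayed at least 2-fold lower under each alternative.

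Dim probes past the same limit lost it after normexp. MM9LINCRNAEXON10477+_P1 differed by -1.80 ± 0.52 (-0.40 after normexp), MM9LINCRNAEXON11061+_P1 by -1.69 ± 0.52 (-0.62), MM9LINCRNAEXON11014-_P1 by -1.61 ± 0.52 (-0.54) and MM9LINCRNAEXON11600-_P1 by -1.22 ± 0.52 (-0.76). MM9LINCRNAEXON10612+_P1, at -1.02 ± 0.40, and MM9LINCRNAEXON11867+_P1, 2.01-fold lower, lay at the limit itself.

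Higher in the tumor were MM9LINCRNAEXON11564+_P1, 6.79-fold (2.76 ± 0.52), MM9LINCRNAEXON11382-_P1, 2.42-fold (1.28 ± 0.52), and MM9LINCRNAEXON11506+_P1, 2.24-fold (1.17 ± 0.40). MM9LINCRNAEXON11506+_P1 read 276 units in tumor, 119.5 in tumor-bearing spleen and 326 in wild-type spleen. All 3 had their lowest signal in tumor-bearing spleen, against the lean of the set. After normexp they came to 1.26, 0.43 and 0.79. By the bound, 1 of 6 probes detected in the tumor but not in tumor-bearing spleen was at least 2-fold higher, beside 29.1% of all probes in that position. It was MM9LINCRNAEXON11661-_P1, at least 2.55-fold higher. In the other direction 1 of 2 was at least 2-fold lower, beside 34.5%, namely MM9LINCRNAEXON11593-_P1, at least 2.86-fold lower.

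Read across the 3 arrays, 29 of the 45 probes detected everywhere had their highest scaled level on the tumor-bearing spleen array (64.4%), 10 on the tumor array (22.2%) and 6 on the wild-type array (13.3%). Over all probes detected everywhere, the shares were 41.6%, 26.0% and 32.4%. The count for tumor-bearing spleen was 32 after quantile normalization, in the authors' deposited value table and after normexp, and 29 under the other alternatives. The lowest level was on the wild-type array for 22 probes, on the tumor array for 19 and on the tumor-bearing spleen array for 4 (8.89%, beside 31.0% over all probes).

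Other lincRNA-named probes of the same arrays leaned as these did. Of 276 probes with the prefix mouselincRNA that both spleen arrays measured, 31.5% passed the 2-fold limit upward in tumor-bearing spleen and 5.43% downward, and of 445 with the prefix humanlincRNA, 33.3% and 4.27%. Between tumor and tumor-bearing spleen 25.2% and 27.8% of these prefixes were at least 2-fold lower in the tumor. The MM9LINCRNAEXON probes had higher shares, 48.9% and 32.0%, but whether they differ from the other prefixes was not tested. They were also detected more often: on all 3 arrays 39.4% of mouselincRNA and 37.4% of humanlincRNA probes were, beside 54.2% here.

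By strand, 4 of 27 plus probes and 3 of 20 minus probes passed the limit upward in tumor against wild-type spleen (14.8% and 15.0%), and 2 and 3 passed it downward (7.41% and 15.0%). Between tumor and tumor-bearing spleen, 9 of 28 plus probes and 7 of 22 minus probes were at least 2-fold lower in the tumor (32.1% and 31.8%). Between the spleens, 11 of 26 plus probes (42.3%) and 11 of 19 minus probes (57.9%) were higher in tumor-bearing spleen, with median differences of 0.58 and 1.11. This difference between strands was not tested.

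The 12 numbers read on both strands show where a plus and a minus probe of the same number part. In 3 of the 12 both probes were detected on all arrays, in 2 neither was on any, and in 2 a probe detected on all arrays had a partner detected on none: MM9LINCRNAEXON10294-_P1 and MM9LINCRNAEXON11014-_P1 were detected, while their plus partners read between 2.96 and 16.3 units. For number 10664 both strands were higher in tumor-bearing than in wild-type spleen, at 1.22 ± 0.10 for plus and 1.53 ± 0.40 for minus, a gap of 0.32 ± 0.41 that is within the spot error. Between tumor and tumor-bearing spleen the gap was 0.91 ± 0.42, over 2 of its spot SDs, with the minus probe the lower. After normexp these differences came to -1.20 for plus and -1.37 for minus, so the size of that gap depends on the processing. Which step of the normexp alternative moved it was not tested. Between tumor and wild-type spleen the gap was 0.59 ± 0.53. MM9LINCRNAEXON10664-_P1 read 61.5 units in tumor, 259 in tumor-bearing spleen and 122 in wild-type spleen, far dimmer than its plus partner. For number 10495 the plus probe read 36.6, 56.4 and 38.0 units, and its difference between the spleens was 1.02 ± 0.52, below that of the minus probe by 1.17 ± 0.74. The plus probe came within 2-fold under each of 5 alternatives, at 0.56 after normexp.

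Of the 3 numbers with both probes detected everywhere, 11711 had the widest gap between strands in both tumor comparisons, and 10495 between the spleens. Its plus probe, chosen for mention after its values were seen, read 102 units in tumor, 189.8 in tumor-bearing spleen and 174.5 in wild-type spleen, a tumor difference from wild-type spleen of -0.36 ± 0.52. Its minus probe differed by 2.47 ± 0.52 (1.57 after normexp), so the gap without normexp was 2.83 ± 0.74. Between tumor and tumor-bearing spleen it was 1.91 ± 0.66, and between the spleens 0.91 ± 0.66. For the adjacent number 11712 the plus probe, also chosen afterwards, read 123, 254 and 142 units, while the minus probe was detected in wild-type spleen alone, as given above. The minus probes of these adjacent numbers thus stood highest on different arrays, 11711 in tumor and 11712 in wild-type spleen, while the plus probes were both highest in tumor-bearing spleen. The gap between those plus probes in the tumor comparison was 0.56 ± 0.73.

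Number 11569 parted as well. MM9LINCRNAEXON11569+_P1 read 19.8 units in tumor, 3.21 in tumor-bearing spleen and 20.4 in wild-type spleen, a difference between tumor and wild-type spleen of 0.37 ± 0.52, while the bright minus probe stood at -1.35 ± 0.19. The gap was 1.72 ± 0.56. For number 11382 the plus probe was detected in wild-type spleen alone, at 28.4 units, and the minus probe on all arrays. For number 11641 both strands were dim, with 23.5, 22.3 and 20.3 units for plus and 25.4, 17.3 and 16.0 for minus, and the minus probe was not well above background in wild-type spleen, so their differences are not set against each other.

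Neighbouring numbers, at most 3 apart, gave 27 pairs of probes, of which 8 were detected on all arrays for both. Between the spleens 2 of those 8 pairs had differences more than 1 log2 unit apart, and the median gap was 0.58. MM9LINCRNAEXON10667+_P1, 3 numbers from the very bright MM9LINCRNAEXON10664+_P1, was 2.14-fold higher in tumor-bearing than in wild-type spleen, a log2 gap of 0.12 ± 0.23. MM9LINCRNAEXON11060-_P1 and MM9LINCRNAEXON11061+_P1, which read 26.9 units in tumor, 84.4 in tumor-bearing spleen and 42.7 in wild-type spleen, differed by 1.42 ± 0.21 and 1.44 ± 0.52. After normexp the latter values came to 1.25 and 0.78, so the likeness of MM9LINCRNAEXON11060-_P1 and MM9LINCRNAEXON11061+_P1 depends on that choice. By contrast MM9LINCRNAEXON11939-_P1 stood 1.53 ± 0.56 above its neighbour MM9LINCRNAEXON11940+_P1, and MM9LINCRNAEXON11009-_P1 stood 1.33 ± 0.74 above MM9LINCRNAEXON11010+_P1. The gap of 1.33 is under 2 of its spot SDs, and the difference of MM9LINCRNAEXON11009-_P1 itself came to 0.81 after normexp. No source used here says whether neighbouring numbers belong to the same transcript.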

How the data were processed

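Total RNA was labelled with Cy3 and hybridised in 1 colour, and the deposited intensity values were extracted with Agilent Feature Extraction 11.0.1.1, per the file headers. The processed intensity is background-subtracted and detrended within an array, with a multiplicative detrending fit that the headers give as 0 for tumor-bearing spleen and above 0 for the other arrays. The deposited value table holds log2 values of the authors. No source used here names its between-array method, its medians were 6.40 on each array, and it correlated with the log2 signals at r = 0.999, 0.999 and 0.999.

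From these, 147 outlier spots and all control spots were left out, repeated spots averaged, and the 75th percentile of 60915 probes subtracted on the log2 scale. No spot of the 83 probes was saturated or an outlier. Spot error was pooled over probes with at least 8 spots, 90% or more of them well above background. For this step control probes were not excluded. It was 0.37 below -1.5 relative to the percentile, 0.16 up to 0, 0.14 up to 4 and 0.07 above. These values rest on few pairs of repeated probe and array: 16 below -3, 7 up to -1.5, 4 up to 0, 12 up to 4 and 66 above. Below -3 the single SDs ran from 0.11 to 0.91. No such probe lay below -4.70, where 0.37 was kept. Alternatives were quantile normalization, a median scale, the authors' table, other detection filters, normexp (offset 50) on median signals, signals without multiplicative detrending and a 4-fold limit. The brighter subset was added after the data were seen. Only the counting of differences past 2-fold was tested on simulated data, with 4-fold shifts and noise drawn from the pooled spot error.

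Named probes are, per comparison and direction, the 10 largest differences past 2-fold and the 5 largest bounds, the 10 brightest, those sharing 1 of the first 10 shared numbers, and the 2 nearest the limit on each side in the first comparison. The probes and rules were chosen with earlier results of these data known. Calculations used Python 3.11.15, numpy 2.4.6, pandas 2.3.3, R 4.3.3 and limma 3.58.1.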

Additional observations from a re-analysis of the deposited data

How the results depend on the processing

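The counts of probes at least 2-fold higher and lower stayed within 1.5 times under quantile normalization, the median scale, the authors' table, signals without multiplicative detrending and detection on all 3 arrays, and detection counts did so with the scanner's laxer mark. After normexp they were 3 and 3 for tumor against wild-type spleen (6.38% each, beside 14.4% and 14.3% of all probes). They were 14 and 1 between the spleens, and 1 and 9 for tumor against tumor-bearing spleen, with the shares given above. With a 4-fold limit they were 3 and 1 for tumor against wild-type spleen (6.38% and 2.13%, beside 7.96% and 7.78% of all probes). Between the spleens they were 2 and 1, and the upward excess was gone (4.44%, beside 8.79% of all probes). For tumor against tumor-bearing spleen they were 1 and 2 (2.00% and 4.00%, beside 2.72% and 3.45%). The setting with no filter on detection takes in all 83 probes. There 17 were higher and 10 lower in tumor than in wild-type spleen (20.5% and 12.0%, beside 20.3% and 18.6% of all probes). In tumor-bearing spleen 32 were higher and 10 lower than in wild-type spleen (38.6% and 12.0%, beside 25.4% and 22.5%). In tumor 10 were higher and 24 lower than in tumor-bearing spleen (12.0% and 28.9%, beside 16.3% and 15.1%). With brighter probes only, which leaves 22, 1 was higher and 4 lower in tumor than in wild-type spleen, 11 higher and 2 lower in tumor-bearing than in wild-type spleen, and 1 higher and 10 lower in tumor than in tumor-bearing spleen. Of 53 named differences past 2-fold, 27 stayed past it under each of 5 scaling, source and background alternatives, and none changed sign. The median difference between tumor and wild-type spleen turned from 0.17 to -0.09 with brighter probes only. No paired analysis was possible because each group has 1 array.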

Other observations

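The 3 probes detected in wild-type spleen alone had 1 spot per array each. The median pixel value of MM9LINCRNAEXON11660+_P1 was 46.5 on the tumor array, 46.0 on the tumor-bearing spleen array and 142 on the wild-type array, over local backgrounds of 24.0, 23.0 and 24.0. For MM9LINCRNAEXON11712-_P1 the pixel values were 62.0, 66.0 and 271 over 26.0, 27.0 and 24.0, and for MM9LINCRNAEXON11382+_P1 they were 49.0, 56.0 and 80.0 over 21.0, 23.0 and 21.0. For MM9LINCRNAEXON10569-_P1, detected on all arrays but far brightest in wild-type spleen, they were 732, 1817 and 27047 over 24.0, 24.0 and 26.0. Local background at each of these spots differed by at most 3 units between arrays, and none of them had an outlier flag. Of all spots of the 83 probes, 1 had a flagged local background, that of MM9LINCRNAEXON10343+_P1. Its signals were 271 units in tumor, 466 in tumor-bearing spleen and 356 in wild-type spleen.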
